A study of Mus musculus with 6 samples.

Results

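Small RNA sequencing of murine bone marrow-derived monocytes (BMMs) was used to describe the let-7 miRNAs let-7a, let-7d, let-7f, let-7g and let-7i together with miR-98. These come from 8 hairpins, Mirlet7a-1, Mirlet7a-2, Mirlet7d, Mirlet7f-1, Mirlet7f-2, Mirlet7g, Mirlet7i and Mir98, out of 1174 miRNA hairpins that GENCODE M21 lists for the mouse. They were chosen by name and not by their values, though with earlier results of these data known. Reads of 18 nt or longer that matched a hairpin exactly, with up to 3 unmatched bases at the 3' end, were summed by arm (5p or 3p), and are given as reads per 1000000 hairpin reads (rpm). Reads were found for 13 arms of these hairpins, 6 of them 5p and 7 of them 3p, out of 974 arms with reads. Every sample came from wild-type C57BL/6 cells. Control samples (n = 3) received PBS and LPS samples (n = 3) received 5 pg/ml lipopolysaccharide for 4 h, a super-low dose of this outer membrane component of Gram-negative bacteria. The labels call the cells bone marrow monocytes and the medium DMEM, where the methods give RPMI. No source states how many animals the samples came from, so the spread between samples may be technical.

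The let-7 family is a group of miRNAs that share a seed, the stretch of the guide strand that pairs with target mRNAs, and it is known for high levels in differentiated cells and for repressing growth genes such as Ras, Myc and Hmga2. The RNA-binding protein LIN28 holds its precursors back in stem cells. Most let-7 precursors, called group II, carry a short 3' overhang and receive a single U from terminal uridylyl transferases before Dicer cuts them, whereas the precursor of let-7a-2 is of group I and does not need that U. That U sits at the end of the 3p strand, which is usually discarded.

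The 5p sequences are shown because the members share a seed and differ by a few bases outside it. Mature sequences are those of RefSeq (GRCm38.p6), 5' to 3', with the seed (bases 2 to 8) in capitals. The 14 mature names of the 8 hairpins, 6 of them 5p and 8 of them 3p, were all matched.
let-7a-5p: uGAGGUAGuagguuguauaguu
let-7d-5p: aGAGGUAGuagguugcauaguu
let-7f-5p: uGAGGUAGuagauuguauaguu
let-7g-5p: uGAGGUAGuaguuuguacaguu
let-7i-5p: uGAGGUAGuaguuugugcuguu
miR-98-5p: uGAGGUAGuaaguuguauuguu
Counted from 1 at the 5' end and read from let-7a-5p, let-7f-5p differed by G12A alone. let-7d-5p differed by U1A and U16C, let-7g-5p by G12U and U18C, and miR-98-5p by G11A and A19U. The most distant was let-7i-5p, with G12U, A17G, U18C and A19U. The 5p strands of Mirlet7a-1 and Mirlet7a-2 are identical, as are those of Mirlet7f-1 and Mirlet7f-2, and each pair was counted together.

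The 8 hairpins lie at 5 places in the GRCm38 genome. Mirlet7a-1 (chr13:48538179-48538272), Mirlet7f-1 (chr13:48537829-48537917) and Mirlet7d (chr13:48536012-48536114) follow each other on the minus strand, in exons of the long non-coding RNA 6720427I07Rik. Mirlet7f-2 (chrX:151912346-151912428) and Mir98 (chrX:151913214-151913321) lie on the plus strand in introns of Huwe1, which encodes a ubiquitin ligase. Mirlet7g (chr9:106178840-106178927, plus strand) lies in an intron of Wdr82. Mirlet7a-2 (chr9:41536716-41536811, plus strand) is intronic in the non-coding transcripts 3110039I08Rik and Gm49317. Mirlet7i (chr10:122985640-122985724, minus strand) overlaps an exon of the transcribed pseudogene D630033A02Rik.

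The samples held 2201520 to 17691405 reads, of which 61.6% to 71.0% were assigned to hairpins, giving 1498829 to 10927338 hairpin reads. LPS replicate 2 was the deepest and stood apart from the rest, with 57406 rpm of miR-24-3p against 1505 to 2261 rpm in the other 5 samples and 55426 rpm of miR-146a-5p against 2822 to 4515 rpm. Its make-up differed as a whole library too. Only 18.6% of its distinct sequences had just a single read, while this share lay between 67.1% and 74.6% in each remaining library. The reason for this gap was not tested. The 5 hairpins of the myeloid marker list summed to between 161505 and 217799 rpm. The 5 epithelial hairpins summed to 78.2 to 98.6 rpm in the control samples and 83.6 to 173 rpm in the LPS samples, where LPS replicate 2 was the highest. The lymphoid list, miR-150, was likewise highest in LPS replicate 2, at 49.2 rpm against 14.9 to 23.2 rpm in the other 5 samples. The endothelial list gave 33.8 to 50.3 rpm, the stromal list 7.34 to 14.2 rpm and the neural list 0.366 to 3.47 rpm. The erythroid, liver and muscle lists reached at most 1.83 rpm in any sample. The part of these markers in the results was not tested.

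The 13 arms together took 6.65% ± 0.42 of the hairpin reads of control samples and 6.42% ± 0.97 of those of LPS samples (SD, n = 3 each). Almost all of it was 5p. In such bulk samples, fewer cells of a type and less RNA per cell cannot be told apart. The order of the 5p arms was let-7f, let-7i, let-7a, let-7g, let-7d and miR-98 in each of the 6 samples, and the ranges of neighbours in that order did not overlap.

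let-7f-5p stood at 30035, 26830 and 31051 rpm in control replicates 1 to 3 and at 28144, 22674 and 32322 rpm in LPS replicates 1 to 3. It held rank 6 of 974 arms by mean level. The LPS samples lay on both sides of the controls, with LPS replicate 2 the lowest of all.

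let-7i-5p, made from a single hairpin, gave 15387, 18687 and 19121 rpm in the control samples and 15751, 16387 and 20025 rpm in the LPS samples. let-7a-5p gave 9702, 11631 and 11873 rpm in control and 8587, 9751 and 13507 rpm with LPS. For both, control replicate 1 and LPS replicate 1 were the lowest samples of their groups, and the groups overlapped. They ranked 13 and 17.

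let-7g-5p was measured at 3639, 4605 and 4690 rpm in control and at 3388, 4892 and 5171 rpm with LPS. let-7d-5p, the member with the substitution U1A, varied least from sample to sample, at 2113, 2088 and 2125 rpm in control and 2115, 1939 and 2023 rpm with LPS. miR-98-5p was the lowest 5p arm at 969, 1228 and 1159 rpm in control and 932, 1065 and 1393 rpm with LPS. The ranges of the groups overlapped for each of these arms.

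**Figure D1:**
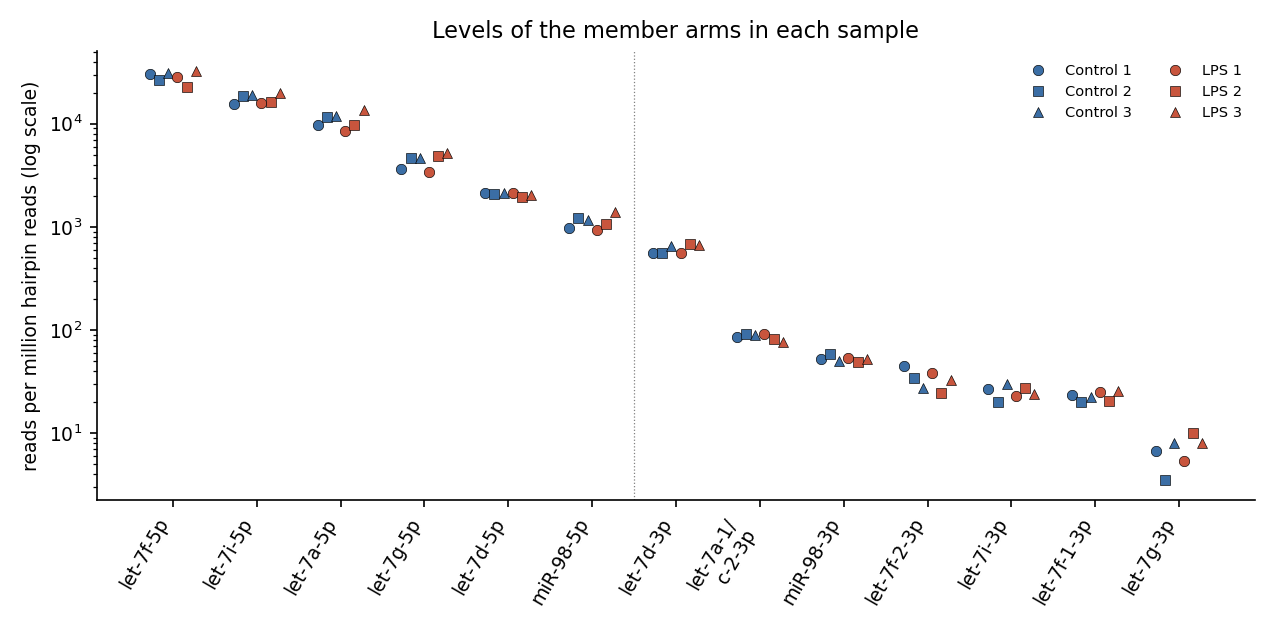
Reads per 1000000 hairpin reads (log scale) of the 13 arms, 5p left and 3p right of the dotted line, with 1 point per sample, control in blue and LPS in red. The 5p arms stand in the same order in all 6 samples, from let-7f-5p at 22674 to 32322 rpm down to miR-98-5p at 932 to 1393 rpm, and control and LPS points overlap for every arm.

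As shares of the members' 5p reads, let-7f took 39.98% to 48.6% (median 43.9%) and let-7i took 24.9% to 28.9% (median 27.1%). let-7a took 14.6% to 18.1%, let-7g 5.75% to 8.63%, let-7d 2.72% to 3.59% and miR-98 1.57% to 1.89%. The control and LPS means of these shares differed by less than 1 SD for each of the 6. For let-7f they were 44.7% ± 3.68 and 43.7% ± 3.90 (SD, n = 3 each), and for let-7i 27.0% ± 1.94 and 27.5% ± 1.20.

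Since let-7a-5p and let-7f-5p differ by 1 base, a misread base could move reads between them. Full-length let-7a reads amounted to 29.3% to 41.3% of full-length let-7f reads. The other bases at position 12 of let-7f, which belong to no family member, amounted to at most 0.0193% of it in any sample. Over the 65 other 1-base variants of let-7f, the median was 0.00809% of its reads and the highest 0.197%. Over the 63 other 1-base variants of let-7a, the median was 0.00836% of its reads and the highest 0.277%. The levels of let-7a and let-7f were far above those of these variants. A change between A and G at position 12 is itself the difference between let-7a and let-7f, so its rate could not be measured here. Whether misread bases moved reads between them was not tested.

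3 further arms carry the same seed but are made from other hairpins. let-7c-5p, which differs from let-7a-5p at 1 base, was present at 5477 to 8970 rpm, between let-7a and let-7g. let-7e-5p was present at 888 to 1361 rpm, overlapping miR-98. let-7b-5p stood at 572 to 792 rpm in 5 samples and at 1603 rpm in LPS replicate 2.

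The 3p arms, the passenger strands, differed more between members than the 5p arms did. let-7d-3p was by far the most abundant, at 556, 555 and 659 rpm in control and 563, 685 and 667 rpm with LPS. It made up 20.8% to 26.1% of let-7d reads. miR-98-3p followed in share, with 3.65% to 5.47% of miR-98 reads at 48.5 to 58.3 rpm. For the other miRNAs the 3p strand was rare, at 0.565% to 1.04% of let-7a, 0.159% to 0.226% of let-7f, 0.0760% to 0.203% of let-7g and 0.106% to 0.175% of let-7i reads.

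The 3p share of let-7d was thus above that of every other member in each of the 6 samples. The let-7a value counts let-7a-1-3p, at 76.7 to 90.6 rpm, whose sequence is identical to let-7c-2-3p of a hairpin outside the group, so it is an upper limit for let-7a. let-7a-2-3p was not found in 22231758 hairpin reads of the 6 samples, which allows up to 0.135 rpm (3 counts, counting error only). The 3p strands tell the let-7f hairpins apart, with let-7f-2-3p at 24.3 to 44.6 rpm and let-7f-1-3p at 19.8 to 25.4 rpm. let-7i-3p stood at 19.8 to 29.6 rpm and let-7g-3p at 3.501 to 9.97 rpm, the latter from 6 to 109 reads per sample.

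**Figure D2:**
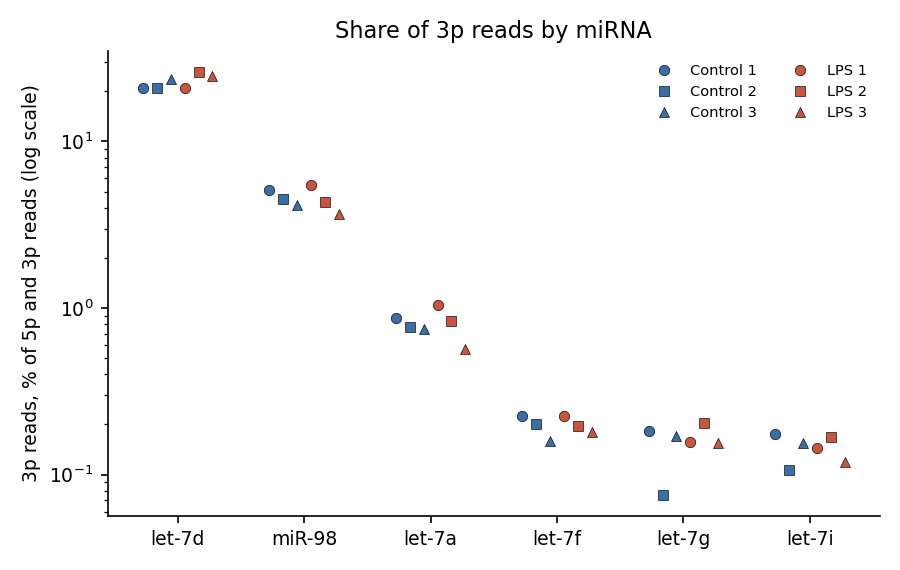
Share of 3p reads among all 5p and 3p reads of each miRNA, in percent on a log scale, with 1 point per sample, control in blue and LPS in red. let-7d lies at 20.8% to 26.1%, miR-98 at 3.65% to 5.47%, and the other 4 at or below 1.04%.

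The 5p arms were cut at a fixed 5' base. The share of reads that started at the first base of the mature sequence was at least 98.1% for each member in each sample, lowest for let-7d-5p (98.1% to 98.6%), so that nearly every read kept the shared seed. The 3' ends varied more, with 72.7% to 74.7% of the 5p reads at 22 nt, 13.4% to 14.9% at 23 nt and 9.43% to 10.4% at 21 nt. let-7i differed here, with 23.6% to 26.1% of its reads at 23 nt and 4.47% to 5.08% at 21 nt. In let-7f, 8.92% to 10.6% of reads were of 23 nt and 10.7% to 11.8% of 21 nt.

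The most frequent reads of let-7i-5p are shown with unmatched 3' bases in capitals, because most of the family's tails sit on them. The next base of the Mirlet7i hairpin after the mature sequence is G, so that neither A nor T is encoded there.
let-7i-5p, mature: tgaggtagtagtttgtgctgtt
let-7i-5p with A: tgaggtagtagtttgtgctgttA
let-7i-5p with T: tgaggtagtagtttgtgctgttT
The read with A made up 19.9%, 19.3% and 18.5% of let-7i-5p in the control samples and 20.1%, 19.1% and 18.2% in the LPS samples. The read with T made up 4.48% to 5.73%, and the mature sequence itself 64.8% to 67.2%.

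Counting 1 unmatched A after any end, let-7i-5p carried it on 18.5% to 20.4% of its reads (median 19.5%). Next came miR-98-5p with 6.03% to 7.24%, let-7g-5p with 5.30% to 6.90%, let-7d-5p with 5.37% to 6.93%, let-7a-5p with 4.65% to 5.05% and let-7f-5p with 4.52% to 5.11%. None of the other 36 5p arms with at least 1000 reads in every sample had a higher median than let-7i-5p. Their median was 2.13%, and the nearest was miR-532-5p with 18.02%. This comparison was chosen after the values were seen and is given without a test. Tails were also frequent on same-seed arms outside the members. Some unmatched tail was carried by 26.2% to 34.6% of let-7b-5p reads, against 26.3% to 29.1% of let-7i-5p. For let-7e-5p it was 18.1% to 22.2%, and for let-7c-5p 6.65% to 7.65%. A single A stood at 8.55% to 10.7% on let-7b-5p, and a single T at 11.2% to 13.1% on let-7e-5p.

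A single unmatched T was seen on 4.50% to 5.76% of let-7i-5p and 2.34% to 3.59% of miR-98-5p reads. It was at most 0.247% on let-7g-5p, 0.236% on let-7d-5p, 0.0395% on let-7a-5p and 0.0109% on let-7f-5p. The hairpins of these 4, except Mirlet7f-1, continue with T after the mature sequence, so that an added T cannot be told apart there from an encoded one. Reads of the mature sequence plus T made up 4.69% to 5.62% of let-7a-5p, 4.35% to 5.59% of let-7f-5p, 6.71% to 8.09% of let-7d-5p and 3.38% to 3.77% of let-7g-5p.

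**Figure D3:**
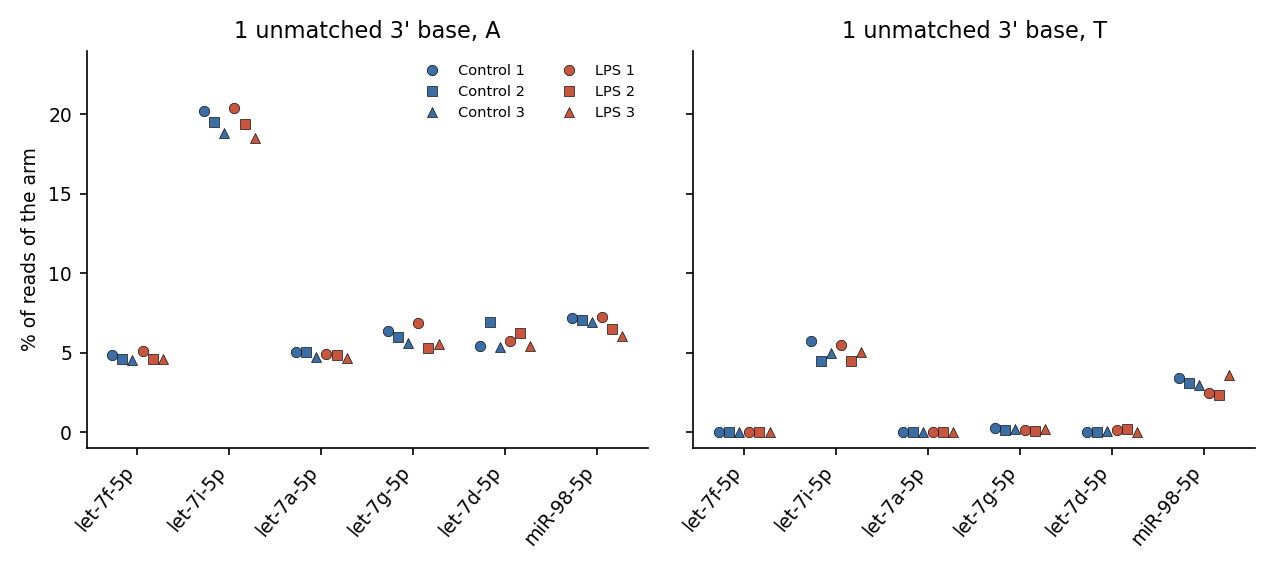
Share of the reads of each 5p arm that end in 1 unmatched A (left) or 1 unmatched T (right), in percent, with 1 point per sample, control in blue and LPS in red. let-7i-5p is the highest of the arms shown, with A on 18.5% to 20.4% of reads, and the other 5 lie between 4.52% and 7.24%.

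Taken over all their 5p reads, the members carried some unmatched tail on 11.4% to 12.3% of reads and all other 5p arms on 6.69% to 7.65%. The difference was 4.80 ± 0.50 points (SD, n = 6) and was positive in 6 of 6 samples, with p = 0.0312 in an exact two-sided sign-flip permutation test, the smallest this test can give. Adjusted over the 5 comparisons of shares by Benjamini-Hochberg it was 0.0521. The SD and p cover the spread between samples and not the spread between arms. Among the members' 5p arms the tailed share ranged from 4.93% on let-7f-5p to 29.1% on let-7i-5p. Without let-7i-5p, the members' share was 5.74% to 6.27%, below the other arms in 6 of 6 samples. The excess in counted tails thus rested on let-7i-5p. A T added where the hairpin encodes T is not counted, so the sign without let-7i-5p may not hold for all added bases. For 1 unmatched A alone the members had 8.46% to 9.34% against 2.37% to 2.56% (exact permutation p = 0.0312, adjusted 0.0521), and still 4.76% to 5.30% without let-7i-5p. For 1 unmatched T the members were below the other arms, at 1.37% to 1.52% against 1.62% to 2.58% (exact permutation p = 0.0312, adjusted 0.0521). The hairpins of let-7a, let-7d, let-7f and let-7g, except Mirlet7f-1, encode T after the mature 5p sequence, so an added T there was not counted. The difference therefore does not show that the members received less added T. The tests of single A and single T were added after the data were seen.

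The tailed share of the members' 5p reads was 11.8% ± 0.31 in control and 11.8% ± 0.47 with LPS (SD, n = 3 each). The difference of 0.0593 points was smaller than the spread (exact two-sided permutation p = 1.0, where 3 against 3 cannot go below 0.1).

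On 4 of the 7 3p arms, those of let-7a-1, let-7f-1, let-7f-2 and let-7g, the unmatched base was mostly T. The leading read of each arm that ended in such a T is shown, with the T in capitals, since for these arms the tailed form and not the RefSeq sequence was the most frequent one.
let-7a-1-3p and let-7c-2-3p: ctatacaatctactgtctttcT
let-7f-1-3p: ctatacaatctattgccttccT
let-7f-2-3p: ctatacagtctactgtctttcT
let-7g-3p: ctgtacaggccactgccttgcT
The first and second differ from the RefSeq mature sequence by C22T, counted from its 5' end. The let-7f-2-3p read is the RefSeq sequence with T added, where the hairpin continues with C. The let-7g-3p read starts 1 base later than RefSeq gives, and the hairpin also continues with C.

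let-7f-2-3p carried 1 unmatched T on 94.7%, 98.3% and 98.4% of its reads in the control samples and 95.1%, 98.1% and 100% in the LPS samples. The lowest 95% Wilson interval was 89.0% to 97.6%, and with 49 to 266 reads per sample the untailed form was rare. let-7a-1-3p, counted with let-7c-2-3p, carried it on 82.6%, 76.1% and 86.8% in control and 80.1%, 77.5% and 84.3% with LPS. let-7f-1-3p had 50%, 76.5% and 71.7% in control and 68.8%, 73.4% and 55.3% with LPS, from 34 to 222 reads. let-7g-3p ranged from 33.3% to 64.7%, with A as frequent as T in control replicate 2, and its 6 reads there gave an interval of 9.68% to 70.0%. Intervals cover counting error only, as PCR copies are not independent molecules.

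let-7d-3p, let-7i-3p and miR-98-3p showed 1 unmatched T on at most 0.467%, 5.80% and 1.00% of reads. On let-7d-3p, the most abundant 3p arm, 1 unmatched A was more frequent, at 4.65% to 6.28% of reads, and 1 unmatched C or G stood at 1.35% to 2.70%. let-7i-3p had A on a median of 2.20% of reads and T on 0.714%. In these, the T at base 22 of the mature sequence is itself in the hairpin, so that an added T in its place cannot be told apart. Their reads ended in T, encoded or not, in 80.5% to 82.7%, 41.2% to 66.7% and 95.7% to 99.2% of cases. Pooled over the group II members, 12.5% to 16.6% of 3p reads had 1 unmatched T, a value set largely by let-7d-3p. The contrast with let-7a-2, the group I member, could not be made because it had no 3p read. Outside the members, let-7b-3p showed 48.8% to 64.9%, let-7e-3p 36.7% to 52.3% and let-7c-1-3p 0% to 7.55%. The precursors of these outside arms were not sorted into group I or II here. Whether an unmatched T on 3p arms follows the precursor group was therefore not tested. Other 3p arms together had 5.75% to 9.01%.

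**Figure D4:**
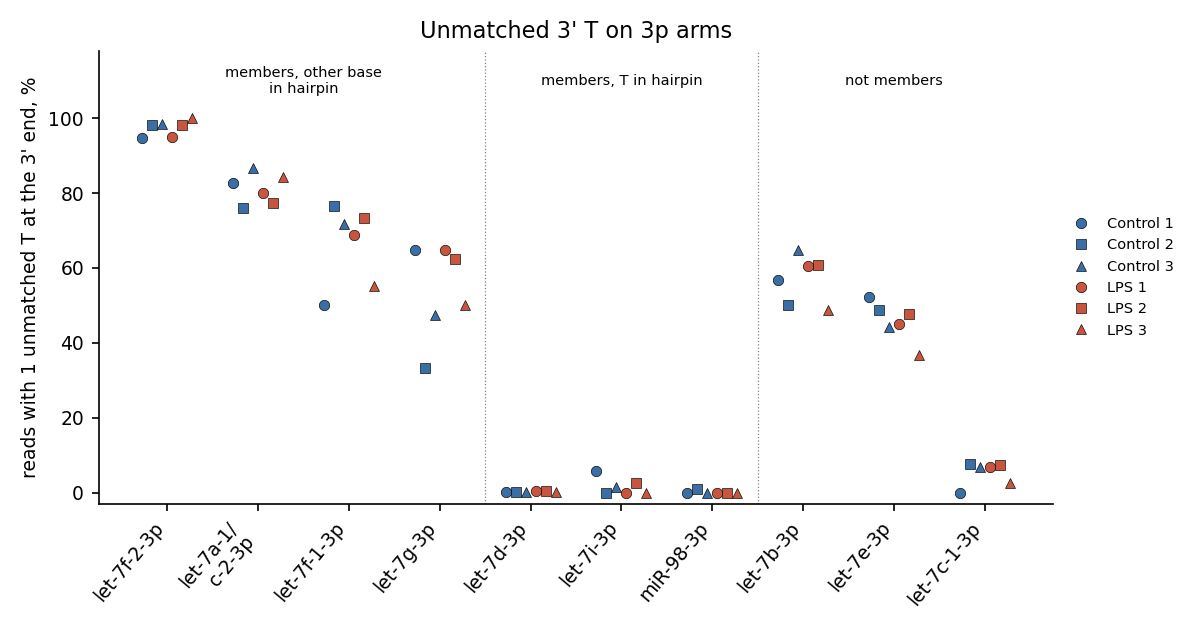
Share of the reads of each 3p arm that end in 1 unmatched T, in percent, with 1 point per sample, control in blue and LPS in red. let-7f-2-3p lies at 94.7% to 100% and the let-7a-1 arm at 76.1% to 86.8%, while the 3 members whose hairpin encodes T at that place lie at or below 5.80%.

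The 5' ends of the 3p arms were less fixed than those of the 5p arms for some members. miR-98-3p started 1 base later than RefSeq in 18.9% to 28.6% of reads and let-7d-3p in 4.93% to 6.12%. let-7g-3p did so in 66.7% to 100%.

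The main comparison asked whether LPS at this dose changed the level of a miRNA, by edgeR's quasi-likelihood test over 319 arms with Benjamini-Hochberg adjustment. Of the 13 member arms, 0 rose and 0 fell at the threshold of 0.05 on the adjusted p, against 0 of all 319 arms in either direction (0%). At an unadjusted p under 0.05, 0 members passed, where 2.19% of all arms were higher and 0.313% lower. For no member did all LPS samples lie above or below all control samples, as they did for 1.57% of all arms in each direction. All 13 members had an adjusted p of 0.994 in edgeR.

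On the log2 scale, let-7f-5p differed by -0.11 (SE 0.15, 95% interval -0.47 to 0.26), LPS against control. let-7i-5p differed by -0.06 (SE 0.13, interval -0.37 to 0.26) and let-7a-5p by -0.09 (SE 0.17, interval -0.50 to 0.32). let-7g-5p gave 0.03 (SE 0.18), let-7d-5p -0.08 (SE 0.12) and miR-98-5p -0.02 (SE 0.16). These intervals leave room for changes of either sign and so do not show that the levels were equal.

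Among the 3p arms, let-7d-3p gave 0.09 (SE 0.12) on the log2 scale and miR-98-3p -0.08 (SE 0.18). The largest were let-7g-3p, at 0.34 (SE 0.37, interval -0.55 to 1.23), and let-7f-2-3p, at -0.19 (SE 0.30). Without LPS replicate 2, let-7f-5p gave -0.0066, let-7d-3p 0.0091, let-7f-2-3p -0.03 and let-7g-3p 0.0081, and the other 9 arms lay between -0.18 and 0.16. Of the 13 values 9 were negative and 4 positive, with a median of -0.06, and the median over all arms was 0.0027. The summed share of hairpin reads differed by -0.22 points, LPS minus control (exact two-sided permutation p = 0.7, adjusted 0.875).

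**Figure D5:**
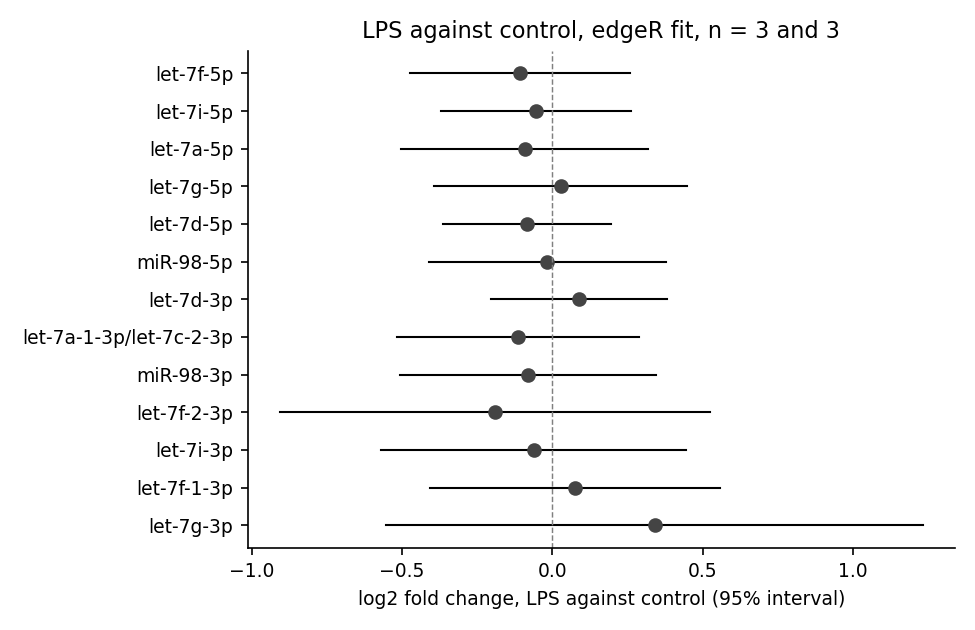
log2 fold change of each member arm, LPS against control, from the edgeR fit with 3 samples a group; points are estimates and lines 95% intervals. Every interval spans 0, and the widest is that of let-7g-3p, from -0.55 to 1.23.

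The summed 5p level of the members was 61845, 65067 and 70018 rpm in control and 58917, 56709 and 74440 rpm with LPS. Of 130 arms outside the seed family with a mean of at least 100 rpm, those with the most similar course over the 6 samples were miR-103-3p (Pearson's r = 0.9696 on log2 levels), miR-92a-3p from Mir92-1 (r = 0.969) and miR-322-3p (r = 0.929). The values share their libraries and the total they are divided by, and all 3 were lowest in LPS replicate 2 and highest in LPS replicate 3, like the sum. In LPS replicate 2 that total held 57406 rpm of miR-24-3p and 55426 rpm of miR-146a-5p, which lowers the rpm of every other arm there. How much of the shared low point this accounts for was not tested.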

How the data were processed

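The authors prepared libraries from extracted small RNA with the Illumina TruSeq Small RNA kit, trimmed the adaptor and deposited, for each sample, raw counts of every distinct read of 11 to 40 nt, with no miRNA names and no normalization. The submitters' notes name mm9, but the files hold no coordinates. Positions here are from GENCODE M21 (GRCm38). A read shared by several arms went to the arm with most reads of its own, and arms sharing at least 50% of reads were merged. The matching and the fit were tested on simulated data. The simulated counts had less spread and larger changes than these data, so they do not show what the fit could find here. Counts per arm were filtered with filterByExpr, scaled by TMM factors and fitted with edgeR 4.0.16 in R 4.3.3 (quasi-likelihood test). DESeq2 1.42.0 was an alternative. Shares were computed in Python 3.11.15 with scipy 1.17.1 and compared by exact permutation over samples. Tails rest on the hairpin sequence, so an added base equal to the encoded one is not seen. The text names all arms of the 8 hairpins, arms with the same seed, and the 3 arms most like the summed 5p level. Members and lists were chosen with earlier results of these data known. Control and LPS samples share replicate numbers in the labels, and deviations from the group means correlated at 0.595, 0.259 and 0.277 for the same number, against -0.387 to 0.154 for different numbers. The correlations were thus higher for the same number. The main intervals and p-values of LPS against control nevertheless leave this pairing out. Results with the replicate number as a block are given below.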

Additional observations from a re-analysis of the deposited data

How the results depend on the processing

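No member passed an adjusted p of 0.05 in edgeR or DESeq2 under any of the settings run, and the lowest adjusted p of a member was 0.611. Of 193 values, 169 kept their sign and 24 did not. With the replicate number as a block (pairing), 0 arms were called and let-7f-5p gave -0.12. The block changed no call of a member or a share. Without the low-count filter, 21 of 974 arms were higher and 0 lower, none of them a member. Sign changes on the log2 scale came with upper-quartile normalization (let-7g-5p -0.058, let-7f-1-3p -0.0043), total hairpin reads (miR-98-5p 0.014), DESeq2 (miR-98-5p 0.00037), exact matches only (let-7a-1-3p 0.0089, let-7f-1-3p -0.41, let-7i-3p 0.049), and the block without replicate pair 2, added after seeing the data (miR-98-3p 0.050, miR-98-5p 0.10, let-7a-5p 0.0042, let-7g-3p -0.17, let-7i-5p 0.050). The cause was not tested. Leaving out each sample in turn, let-7f-5p ranged from -0.19 to -0.0066, let-7d-3p from 0.0091 to 0.15 and let-7g-3p from 0.0081 to 0.54, lowest in size without LPS replicate 2. The log2 values that crossed 0 ranged from -0.15 to 0.00041 for miR-98-3p, -0.15 to 0.079 for miR-98-5p, -0.25 to 0.015 for let-7a-5p, -0.016 to 0.18 for let-7f-1-3p, -0.40 to 0.072 for let-7f-2-3p, -0.068 to 0.17 for let-7g-5p, -0.19 to 0.030 for let-7i-3p and -0.12 to 0.0050 for let-7i-5p. The summed share, LPS minus control, ranged from -0.78 to 0.11 points in this way, and was 0.013 points without miR-24-3p and miR-146a/b-5p in the total and -0.22 points with the block (exact sign-flip p = 0.75, and 3 pairs cannot go below 0.25). The tailed share, LPS minus control, ranged from -0.18 to 0.29 points. The tailed share of members minus other arms ranged from 4.66 to 4.93 points with 5 samples, where the exact sign-flip test cannot go below 0.0625. Without let-7i-5p, a setting added after seeing the data, it turned to -1.01 points in counted tails. For single A alone it was then 2.505 points. The planned contrast of U tails with let-7a-2 was not run, since let-7a-2-3p had no reads. Depth limits the 3p arms most, of which let-7g-3p had 6 reads in control replicate 2.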
